A study of Mus musculus with 6 samples.

Results

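The values described are those of 34 mouse genes of mesangial cells, pericytes and smooth muscle, chosen as probe sets whose annotated gene symbol is one of a fixed list of names. Of the 34 genes, 32 had at least 1 probe set with their symbol, 70 probe sets in all among 45101 on the array, and 27 genes were bright enough to be tested among 11159 genes. RNA came from glomeruli, the capillary tufts in which the kidney filters blood. The glomeruli were isolated with magnetic beads from female mice aged 6 weeks. The RNA was hybridised to Affymetrix arrays, taken here as 1 array per mouse. The 3 Vhl-deleted mice carried Pod-Cre, a transgene whose podocin promoter makes Cre recombinase in podocytes, and a floxed Vhl gene, which encodes the von Hippel-Lindau protein. They had been selected for urinary albumin at 4 weeks no higher than the average of wild-type littermates. The other 3 mice were wild-type littermates. The sources used here do not say whether these littermates carried floxed Vhl alleles.

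Mesangial cells sit between the capillary loops of the glomerulus, hold them together and contract, and they share much of their gene set with pericytes and with the smooth muscle of the arterioles that feed the tuft. Contraction starts when myosin light chain kinase phosphorylates the light chain of smooth muscle myosin, which then pulls on actin filaments dressed with tropomyosin, caldesmon and calponin. Many genes of this apparatus are switched on by serum response factor with its partner myocardin, through a DNA element named the CArG box. Podocin-Cre acts in podocytes, so mesangial and smooth muscle cells keep Vhl. In RNA from whole glomeruli, fewer cells of a type and less RNA per cell cannot be told apart.

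The comparison asked whether mesangial and contractile genes differed in glomeruli whose podocytes lacked Vhl. No member passed the threshold, a limma adjusted p of 0.05 over all genes: 0 of the 27 tested genes rose and 0 fell by limma, where 0.0717% of all genes tested rose and 0.00896% fell. At an unadjusted p of 0.05, 4 members passed (14.8%), against 4.92% of all genes. In 5 members all 3 Vhl-deleted arrays lay above all 3 wild-type arrays, which is 18.5% of the tested members, against 5.04% of all genes tested. These were Myl9, Tagln, Cald1, Ppp1r14a and Lgals1, with log2 changes between 0.18 and 0.56. In no member did all Vhl-deleted arrays lie below, against 5.64% of all genes.

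The mesangial and pericyte markers Gata3, Ptn, Des, Rgs5, Cspg4 and Art3 and the smooth muscle markers Acta2, Myh11, Tagln and Myl9 were all bright enough to be tested. The smooth muscle genes Cnn1, Actg2, Lmod1 and Synpo2 and the surface antigen gene Thy1 were not: their 8 probe sets had mean signals between 16.3 and 67.3, below the filter.

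Changes are log2 differences of signal + 28, Vhl-deleted minus wild-type, with 3 arrays in each group throughout. The added 28 shrinks the changes of dim probe sets. The median change of the tested members was 0.08, where the median of all genes tested was 0.00, and 19 of 27 had a positive change (70.4%, against 50.9% of all genes). The members ran from -0.47 (Abcc9) to 0.56 (Ppp1r14a). The 95% interval lay within a 2-fold change either way in 25 of the 27 and within a 1.5-fold change in 14.

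**Figure D1:**
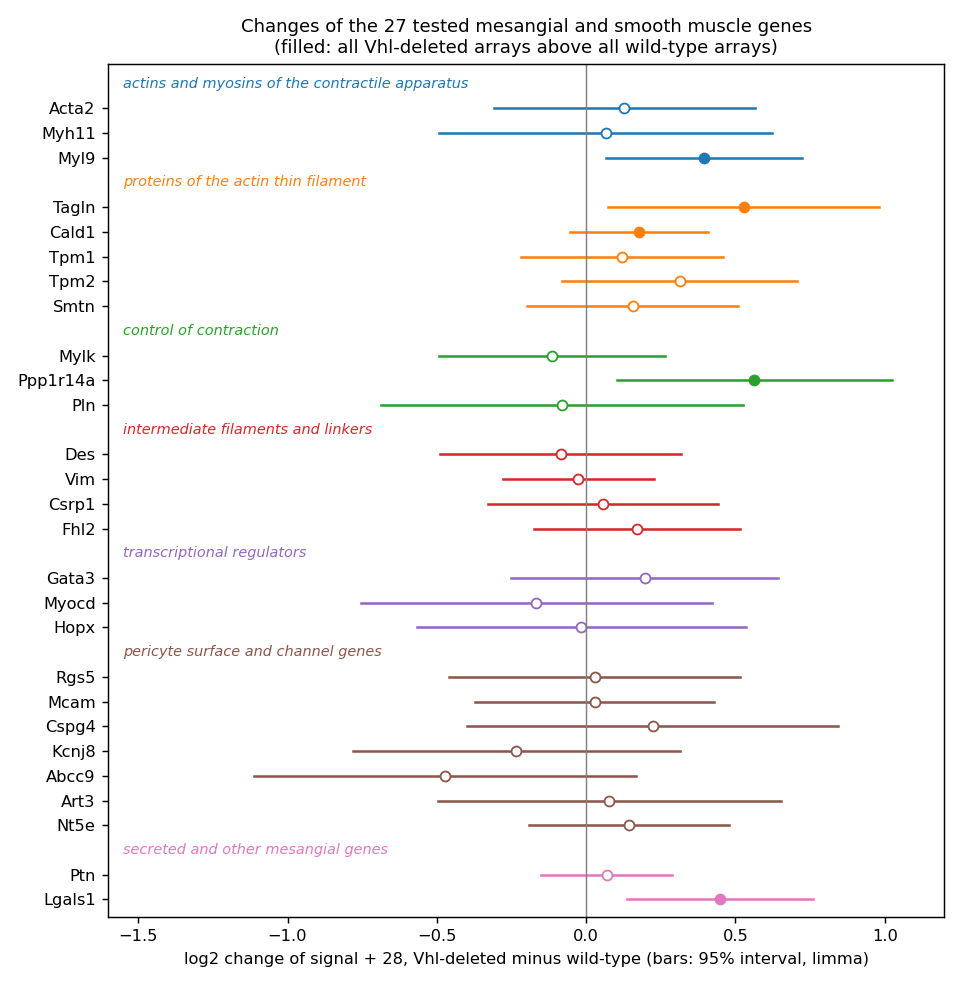
The log2 change of signal + 28, Vhl-deleted minus wild-type, is plotted for the 27 tested genes by role, with bars for the 95% interval from limma. Filled points mark the 5 genes whose Vhl-deleted arrays all lay above the wild-type arrays; changes run from -0.47 in Abcc9 to 0.56 in Ppp1r14a.

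The labels were checked on Egln3, a hypoxia-inducible prolyl hydroxylase gene, which had signals of 5098, 4792 and 3678 in Vhl-deleted replicates 1, 2 and 3, against 144, 171 and 149 in wild-type replicates 1, 2 and 3. Vhl itself was at 612 ± 6.46 in Vhl-deleted arrays and 727 ± 74.1 in wild-type arrays (SD, n = 3 each). Every array had a trimmed mean of 500, median signals ran from 94.6 to 107.5, and the ratio of 3′ to 5′ control probe sets for Gapdh lay between 0.773 and 0.829.

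The arrays also differed in the summed signal of genes that mark other cell types. Proximal tubule genes (15 of 15 tested) had a summed signal of 101808 to 169231 in Vhl-deleted arrays and of 31197 to 136779 in wild-type arrays, with the lowest value in wild-type replicate 3. Podocyte genes (12 of 15 tested) summed to 96360.3 to 116572 in Vhl-deleted arrays and 109205 to 139739 in wild-type arrays, highest in wild-type replicate 3. Endothelial genes (16 of 16 tested) summed to 122545 to 142616 in Vhl-deleted and 117906 to 149126 in wild-type arrays. Leukocyte genes (7 of 11 tested) summed to 6915 to 10381 in Vhl-deleted arrays and 4084 to 6165 in wild-type arrays, with no overlap. Distal nephron genes (8 of 8 tested) summed to 40862.6 to 63619 in Vhl-deleted and 22294 to 53017 in wild-type arrays, and interstitial fibroblast genes (5 of 8 tested) to 16561 to 19391 in Vhl-deleted and 15156 to 25304 in wild-type arrays. Parietal epithelial genes (5 of 6 tested) summed to 5185 to 5841 in Vhl-deleted arrays and 4598 to 4815 in wild-type arrays, again with no overlap. Their mean log2 levels did overlap, at 9.4196 in Vhl-deleted replicate 2 and 9.4262 in wild-type replicate 2. Among the first markers of these lists the log2 change was 0.73 for Lrp2, 0.83 for Cubn, 0.38 for Umod, 0.57 for Slc12a1, -0.38 for Nphs1, -0.21 for Pecam1, -0.12 for Cdh5, 0.22 for Cldn1, 0.67 for Ptprc, 0.14 for Cd68, -0.35 for Pdgfra and 0.32 for Dcn, and none passed the threshold by limma. Over the whole endothelial list 8 genes had a positive and 8 a negative change, with a median of 0.02. The podocyte list had 2 positive and 10 negative changes, with a median of -0.26. All tested proximal tubule (15), distal nephron (8) and parietal epithelial (5) genes had a positive change. So did 6 of 7 leukocyte and 2 of 5 interstitial fibroblast genes. No tested marker of these lists was listed at 0 in any array. The part of other cells in the results below was not tested, other than by the values given.

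Wild-type replicate 1 stood apart in the mesangial and smooth muscle genes, though not in these alone. The other smooth muscle genes described below and the interstitial fibroblast list also had their lowest mean log2 levels there, at 11.24 and 9.98. The summed endothelial signal was lowest there too (117906), but the mean log2 level of the endothelial list was not. Wild-type replicate 1 was the lowest of the 6 arrays in 16 of the 27 members (59.3%), against 13.4% of all genes tested, and the highest in 0. Wild-type replicate 3 was the highest in 11 members (40.7%), where it was also the highest in 31.2% of all genes. It was the lowest in 1 member (3.70%), against 27.5% of all genes. The mean log2 level of the members was 10.96, 11.00 and 11.06 in Vhl-deleted replicates 1, 2 and 3, against 10.71, 10.92 and 11.09 in wild-type replicates 1, 2 and 3, so the wild-type arrays spanned the Vhl-deleted ones. Without wild-type replicate 1 the median change was 0.00 with 14 of 27 positive, and without wild-type replicate 3 it was 0.20 with 22 of 27 positive. The spread between arrays was wider in the wild-type group in 19 of 27 members (70.4%), against 60.1% of all genes. For the members the median SD on the log2 scale was 0.17 in Vhl-deleted and 0.26 in wild-type arrays. For all genes tested it was 0.16 in Vhl-deleted and 0.19 in wild-type arrays.

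**Figure D2:**
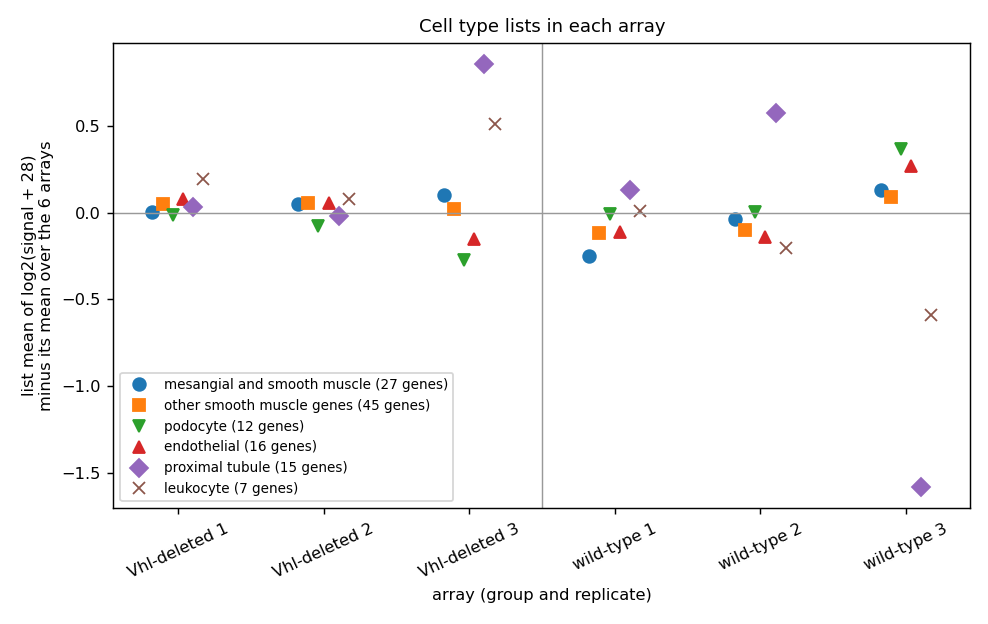
The mean of log2(signal + 28) over each gene list is plotted for each array, minus its mean over the 6 arrays, with 1 symbol per list. The 27 mesangial and smooth muscle genes lie lowest in wild-type replicate 1, as do the other smooth muscle genes. The proximal tubule list lies lowest and the podocyte list highest in wild-type replicate 3.

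Among the actins and myosins, the smooth muscle α-actin gene Acta2 had signals of 3187, 2855 and 4579 in Vhl-deleted replicates 1, 2 and 3, against 2843, 3438 and 3261 in wild-type replicates 1, 2 and 3. Vhl-deleted replicate 3 was the highest array and the groups overlapped. The change was 0.13 (SE 0.19, 95% interval -0.31 to 0.56, limma adjusted p = 0.944), and -0.07 without Vhl-deleted replicate 3. Actin genes are alike in sequence, and the Acta2 probe set has the suffix _s_at, which marks probes shared between transcripts, so signal from other actins cannot be told apart. The probe sets that stand for Cald1 and Abcc9 below have the same suffix. The probe set of the γ smooth muscle actin gene Actg2, which is the actin of gut and bladder muscle, was below the filter on dim probe sets, with signals of 49.4, 46.8 and 32.3 in Vhl-deleted and 61.8, 25.3 and 15.2 in wild-type arrays.

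Myh11, the heavy chain of smooth muscle myosin and the gene that most strictly marks mature smooth muscle, followed Acta2 across the arrays. It had signals of 374, 337 and 643 in Vhl-deleted replicates 1, 2 and 3, against 378, 449 and 416 in wild-type replicates 1, 2 and 3. Its change was 0.06 (95% interval -0.49 to 0.62), and -0.20 without Vhl-deleted replicate 3, whose signal lay above the other 5. A second Myh11 probe set was at 11.3 or less in every array.

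Myl9 encodes the regulatory light chain of smooth muscle myosin, the substrate of myosin light chain kinase. Its signals were 9580.28, 8928 and 7971 in Vhl-deleted replicates 1, 2 and 3, against 6582, 5779 and 7851 in wild-type replicates 1, 2 and 3. The groups did not overlap, though Vhl-deleted replicate 3 and wild-type replicate 3 lay close together. The means were 8826 ± 809 in Vhl-deleted and 6738 ± 1045 in wild-type arrays (SD, n = 3 each), a ratio of 1.31 and a log2 change of 0.40 (SE 0.14, 95% interval 0.07 to 0.72, limma adjusted p = 0.916). With the mean level of the tubule genes as a covariate the change was 0.51 with a limma adjusted p of 0.0754, the lowest of any member in any setting tried; over all settings its limma adjusted p ran from 0.0754 to 0.998.

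The CArG box was looked for in the RefSeq promoters of the members (build GRCm38.p6, 250 bases before to 50 after each gene's start; the box reads the same on both strands). Of 28 members with a promoter in the table, 3 held an exact box (10.7%), against 1.81% of all genes with a promoter there. Tagln, Myh11, Actg2, Myocd, Thy1 and Lgals1 had no entry and were not searched. The genes with a box were Myl9, Hopx and Fhl2, the last at both of its annotated starts. The promoters of Myl9 and Hopx are shown because the first belongs to a gene whose groups did not overlap and the second to one whose groups did. Both are the 250 bases before the start, 5′ to 3′ in the direction of transcription, with the CArG box in capitals; Myl9 is at chr2:156775214-156775463 on the plus strand and the Hopx start at chr5:77115124-77115373 on the minus strand.
Myl9: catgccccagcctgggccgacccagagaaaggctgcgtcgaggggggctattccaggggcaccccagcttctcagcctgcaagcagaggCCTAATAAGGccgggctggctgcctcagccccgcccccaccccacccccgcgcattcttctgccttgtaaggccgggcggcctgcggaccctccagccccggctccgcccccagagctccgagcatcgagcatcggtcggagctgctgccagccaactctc
Hopx: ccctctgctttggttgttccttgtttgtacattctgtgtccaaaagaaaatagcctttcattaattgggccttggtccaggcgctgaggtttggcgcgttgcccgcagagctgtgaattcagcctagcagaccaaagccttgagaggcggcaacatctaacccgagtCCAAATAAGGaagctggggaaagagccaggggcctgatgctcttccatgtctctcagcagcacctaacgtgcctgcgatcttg
The box began 161 bases before the start in Myl9 and 83 bases before it in Hopx. In Fhl2 the boxes were CCAAAAAAGG, 96 bases before one start, and CCTTATATGG, 31 bases before the other. The core of the hypoxia response element was searched as ACGTG on both strands, where it overlaps the E-box CACGTG, and was found in 6 of the 28 members (21.4%), against 21.8% of all genes. A match describes the letters in this window and shows no binding.

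**Figure D3:**
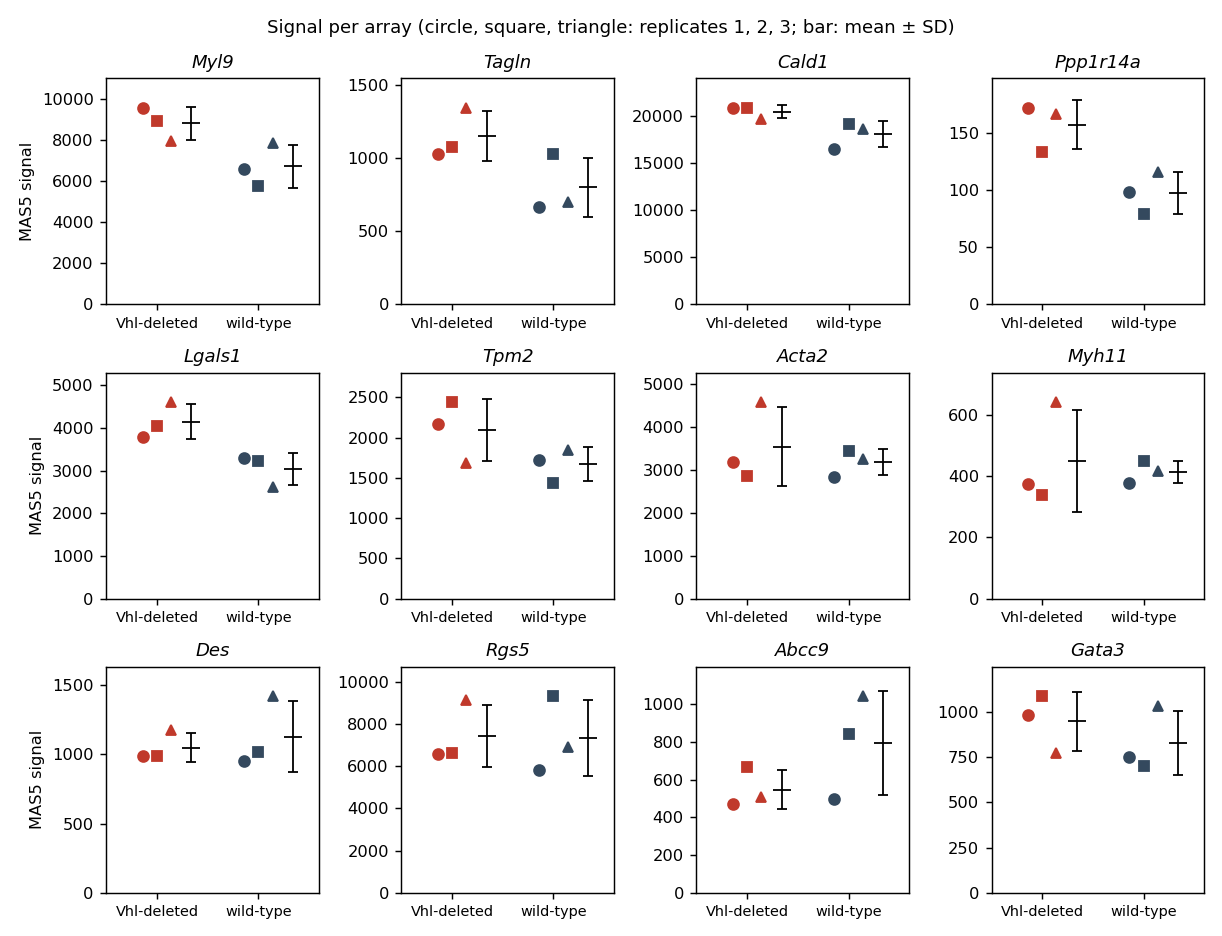
MAS5 signals of 12 genes are plotted for each array on linear axes from 0, with symbols for replicates and bars for the mean ± SD of 3 arrays, Vhl-deleted on the left and wild-type on the right. Myl9, Tagln, Cald1, Ppp1r14a and Lgals1 do not overlap between groups, while Acta2 and Myh11 have their highest signal in Vhl-deleted replicate 3.

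The median change of the 5 tested thin filament genes was 0.18; every one was positive and 0 passed the threshold. Tagln, which encodes the actin-binding protein transgelin, had signals of 1032, 1079 and 1345 in Vhl-deleted replicates 1, 2 and 3, against 668, 1031 and 702 in wild-type replicates 1, 2 and 3. The groups did not overlap, but Vhl-deleted replicate 1 and wild-type replicate 2 were nearly equal, and wild-type replicate 2 lay far above the other wild-type arrays. The means were 1152 ± 169 in Vhl-deleted and 800.08 ± 200.40 in wild-type arrays (SD, n = 3 each), a log2 change of 0.53 (SE 0.19, 95% interval 0.07 to 0.98, limma adjusted p = 0.941). Leaving out 1 array at a time gave changes between 0.41 and 0.72.

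Cald1, caldesmon, which restrains myosin on the actin filament, had signals of 20898, 20884 and 19682 in Vhl-deleted replicates 1, 2 and 3, against 16567, 19159 and 18704 in wild-type replicates 1, 2 and 3. Every Vhl-deleted array lay above every wild-type array, and the change was 0.18 (SE 0.10, 95% interval -0.05 to 0.41). Its other 3 kept probe sets changed by 0.25, 0.33 and 0.45. With quantile normalization the change of Cald1 was 0.07.

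The tropomyosin gene Tpm2 had signals of 2172, 2439.70 and 1679 in Vhl-deleted replicates 1, 2 and 3, against 1726, 1439 and 1849 in wild-type replicates 1, 2 and 3. The groups overlapped because Vhl-deleted replicate 3 was low, and the change was 0.31 (95% interval -0.08 to 0.71). Tpm1 was at 3260.10 ± 294 in Vhl-deleted and 3019 ± 517 in wild-type arrays (SD, n = 3 each), a change of 0.12. Its other 2 kept probe sets, both dimmer, had changes of 0.14 and 0.49. Smtn, which encodes the smooth muscle protein smoothelin, was at 1214 ± 216 in Vhl-deleted and 1079 ± 102 in wild-type arrays (SD, n = 3 each) and, like Acta2 and Myh11, highest in Vhl-deleted replicate 3. The probe sets of calponin (Cnn1) and leiomodin (Lmod1), markers of contractile smooth muscle, were below the filter: Cnn1 was between 11.6 and 39.5 in Vhl-deleted and between 9.65 and 44.3 in wild-type arrays. Lmod1 was between 5.02 and 67.3 in Vhl-deleted and between 16.9 and 37.7 in wild-type arrays.

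The genes that set the strength of contraction did not move together. Ppp1r14a encodes CPI-17, an inhibitor of the phosphatase that removes phosphate from the myosin light chain. Its signals were 172, 133 and 167 in Vhl-deleted replicates 1, 2 and 3, against 98.5, 79.2 and 116 in wild-type replicates 1, 2 and 3. No array of one group reached into the other, and the means of 157 ± 21.2 in Vhl-deleted and 97.8 ± 18.3 in wild-type arrays (SD, n = 3 each) stood at a ratio of 1.61. The log2 change was 0.56 (SE 0.20, 95% interval 0.10 to 1.03, limma adjusted p = 0.903), and the probe set was dim, close to the filter at a signal of 96.4. Mylk, the kinase that opposes this phosphatase, was at 9211 ± 523 in Vhl-deleted and 10116 ± 2241 in wild-type arrays (SD, n = 3 each), a change of -0.11 (95% interval -0.49 to 0.27), with wild-type replicate 3 highest at 12648. One of its 2 other probe sets changed by 0.13 and the other by -0.11. Pln, which encodes phospholamban, the brake on the calcium pump of the sarcoplasmic reticulum, ran from 244 to 399 in Vhl-deleted and from 237 to 429 in wild-type arrays, and its 3 probe sets changed by -0.08, 0.02 and 0.02.

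Among the intermediate filament genes and linkers, 2 of 4 tested had a positive change and the median was 0.02. Des, which encodes the muscle intermediate filament desmin, a marker of mesangial cells that injured podocytes also make, had signals of 985, 988 and 1173 in Vhl-deleted replicates 1, 2 and 3. It had 950.08, 1015 and 1417 in wild-type replicates 1, 2 and 3. The groups overlapped and the change was -0.09 (SE 0.17, 95% interval -0.49 to 0.32). Vim, the vimentin gene of mesenchymal cells and podocytes, was at 14397 ± 1371 in Vhl-deleted and 14633 ± 887 in wild-type arrays (SD, n = 3 each), a change of -0.03 with an interval of -0.28 to 0.23.

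Fhl2, a LIM domain protein gene, had signals of 3691, 3768 and 3997 in Vhl-deleted replicates 1, 2 and 3, against 2761, 3509 and 4009 in wild-type replicates 1, 2 and 3. The Vhl-deleted arrays lay close together inside the wider wild-type range, and the change of 0.17 was 0.02 without wild-type replicate 1. Csrp1, another LIM protein gene, was at 3524 ± 271 in Vhl-deleted and 3429.54 ± 738 in wild-type arrays (SD, n = 3 each). The 4 probe sets of Synpo2, which encodes an actin-bundling protein of the Z-disc, were all below the filter.

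The transcriptional regulators showed no common direction. Gata3, a transcription factor gene that mesangial cells need in the mouse, had signals of 985, 1085 and 769.65 in Vhl-deleted replicates 1, 2 and 3, against 752, 698 and 1029 in wild-type replicates 1, 2 and 3. The groups overlapped, and the change was 0.20 (SE 0.19, 95% interval -0.25 to 0.64). Myocd, myocardin, was at 209 ± 63.7 in Vhl-deleted and 234 ± 45.6 in wild-type arrays (SD, n = 3 each), a change of -0.17. Hopx, a homeodomain protein gene whose product does not bind DNA, ran from 4262 to 4867 in Vhl-deleted and from 3478 to 6797 in wild-type arrays, the widest relative span of these regulators within the wild-type group. Its change was -0.02, which became -0.22 without wild-type replicate 1 and 0.26 without wild-type replicate 3.

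Of the 7 tested pericyte surface and channel genes, 5 had a positive and 2 a negative change, with a median of 0.03. Rgs5, a regulator of G protein signalling and a common pericyte marker, had signals of 6573, 6603 and 9135 in Vhl-deleted replicates 1, 2 and 3, against 5819.95, 9309.85 and 6893 in wild-type replicates 1, 2 and 3. One array of each group was high, and the change was 0.03 (SE 0.21, 95% interval -0.46 to 0.52). Of the other 3 Rgs5 probe sets, 1 changed in the opposite direction, by -0.01. Mcam, the adhesion molecule CD146, was at 1119 ± 94.9 in Vhl-deleted and 1111 ± 243 in wild-type arrays (SD, n = 3 each). Cspg4, which encodes the NG2 proteoglycan, ran from 959 to 1396 in Vhl-deleted and from 651 to 1304 in wild-type arrays, and its change of 0.22 was -0.06 without wild-type replicate 1, the lowest array.

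Kcnj8 and Abcc9 are neighbours on chromosome 6, with 0 protein-coding genes between their starts, and encode the pore and the sulfonylurea receptor of the ATP-sensitive potassium channel that relaxes pericytes and vascular muscle. Abcc9 had signals of 470.00, 666 and 506 in Vhl-deleted replicates 1, 2 and 3, against 500.04, 842 and 1043 in wild-type replicates 1, 2 and 3. Wild-type replicates 2 and 3 lay above all the Vhl-deleted arrays and wild-type replicate 1 lay among them. The change was -0.47 (SE 0.27, 95% interval -1.11 to 0.17, limma adjusted p = 0.944), the lowest of the members, and leaving out 1 array at a time gave between -0.76 and -0.25. Its other 2 probe sets changed by -0.31 and -0.04. Kcnj8 was dim, at 92.2 ± 22.5 in Vhl-deleted and 113 ± 24.4 in wild-type arrays (SD, n = 3 each), a change of -0.23 (95% interval -0.78 to 0.31). Its Vhl-deleted mean lay below the filter at a signal of 96.4 and its wild-type mean above it.

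Art3, which encodes a cell surface protein of the ADP-ribosyltransferase family, was at 3117 ± 460.31 in Vhl-deleted and 3046 ± 1068 in wild-type arrays (SD, n = 3 each), a change of 0.08. Nt5e, which encodes CD73, the surface enzyme that makes adenosine from AMP, was at 6161 ± 401 in Vhl-deleted and 5622 ± 1010.48 in wild-type arrays (SD, n = 3 each), a change of 0.14. Thy1, a surface antigen of mesangial cells in the rat, was below the filter, between 50.2 and 82.4 in Vhl-deleted and between 58.7 and 93.2 in wild-type arrays.

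Ptn encodes the secreted growth factor pleiotrophin. Its signals were 16022, 14553 and 14228 in Vhl-deleted replicates 1, 2 and 3, against 14184, 13847 and 14651 in wild-type replicates 1, 2 and 3. The groups overlapped, and the change of 0.07 (SE 0.09) had the narrowest 95% interval of the members, -0.15 to 0.29. With quantile normalization it was -0.03.

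Lgals1, the gene of the secreted sugar-binding protein galectin-1, had the lowest p of the members. Its signals were 3789.83, 4058 and 4607 in Vhl-deleted replicates 1, 2 and 3, against 3293, 3228 and 2606 in wild-type replicates 1, 2 and 3. The groups did not overlap, with means of 4152 ± 417 in Vhl-deleted and 3042 ± 379 in wild-type arrays (SD, n = 3 each), a ratio of 1.36. The log2 change was 0.45 (SE 0.13, 95% interval 0.14 to 0.76, limma adjusted p = 0.765), and the second probe set changed by 0.46. Galectin-1 is also made by leukocytes and other stromal cells. The leukocyte list had mean log2 levels of 9.57, 9.45 and 9.89 in Vhl-deleted replicates 1, 2 and 3. In wild-type replicates 1, 2 and 3 they were 9.39, 9.17 and 8.78. This list was highest and lowest in the same arrays as Lgals1, and so were the proximal tubule, distal nephron and parietal epithelial lists. With the mean level of the proximal tubule genes as a covariate the change of Lgals1 was 0.35 (limma adjusted p = 0.328). The part of these cells in the result was not tested, other than by the values given. Serpine2, the protease nexin 1 gene, and Akr1b7, an aldo-keto reductase gene of renin cells in the mouse, had no probe set named with their symbol in the annotation used and were not analysed here.

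**Figure D4:**
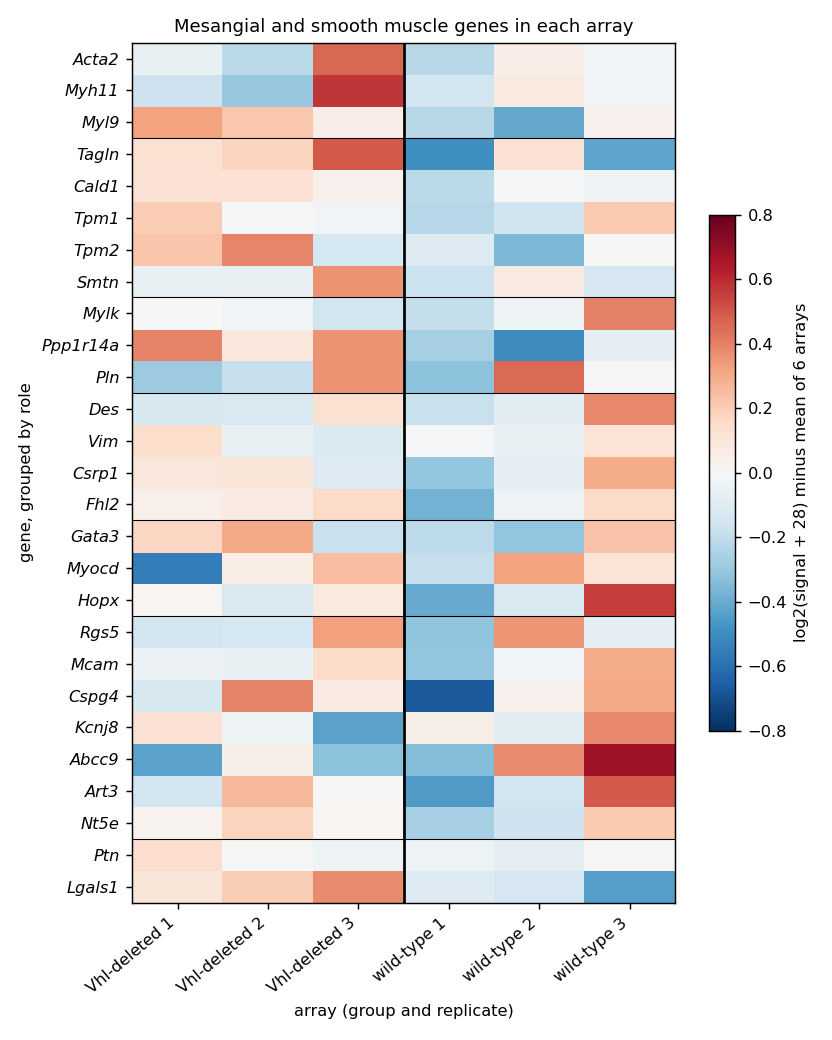
The colour gives log2(signal + 28) of each of the 27 tested genes in each array, minus the gene's mean over the 6 arrays, with genes grouped by role and Vhl-deleted arrays on the left. Wild-type replicate 1 is the lowest array in 16 of the genes and wild-type replicate 3 the highest in 11, while Acta2, Myh11, Tagln, Smtn and Lgals1 are highest in Vhl-deleted replicate 3.

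The members were highest in different arrays. Myl9, Cald1, Ppp1r14a, Vim and Ptn were highest in Vhl-deleted replicate 1, and Tpm2, Gata3 and Cspg4 in Vhl-deleted replicate 2. Acta2, Myh11, Tagln, Smtn and Lgals1 were highest in Vhl-deleted replicate 3, which also had the highest proximal tubule and leukocyte levels. Rgs5, Pln and Myocd were highest in wild-type replicate 2. Des, Hopx, Mylk, Mcam, Art3, Nt5e, Csrp1, Fhl2, Tpm1, Kcnj8 and Abcc9 were highest in wild-type replicate 3, the array with the lowest proximal tubule and the highest podocyte and endothelial levels. The part of these cell types was not tested.

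A list of 54 other smooth muscle genes, 45 of them tested, had a median change of 0.11, with 33 positive changes (73.3%, against 50.9% of all genes). The list is not confined to smooth muscle, as it includes Actb, Actg1, Rhoa and Myh9. Its cytoskeleton and adhesion genes gave 16 of the 33 positive changes. By limma 0 rose and 0 fell, and 3 of the 45 were at an unadjusted p under 0.05, a level that 4.92% of all genes reached. The groups did not overlap in 4 genes with Vhl-deleted higher (8.89%, against 5.04% of all genes) and in 1 with Vhl-deleted lower, where 5.64% of all genes did so. Of the receptors, all 7 tested had a positive change. Ednrb, the endothelin B receptor, which endothelium carries as well as mesangium, had signals of 7646, 8804 and 6616 in Vhl-deleted replicates 1, 2 and 3, against 4170.33, 4352 and 4978 in wild-type replicates 1, 2 and 3. Here too no wild-type array reached the Vhl-deleted ones, and the change was 0.76 (SE 0.13, limma adjusted p = 0.268). The sphingosine phosphate receptor gene S1pr3 was at 0.23 with groups that did not overlap either.

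Of the 10 tested genes of contraction signalling, 5 had a positive and 5 a negative change. The phosphodiesterase genes Pde5a, whose enzyme breaks down cGMP, and Pde3a, whose enzyme breaks down mainly cAMP, lay in opposite directions. Pde5a was at 1720.29 ± 162 in Vhl-deleted and 1289.84 ± 129.52 in wild-type arrays (SD, n = 3 each), a change of 0.41 (limma adjusted p = 0.782). Pde3a was at 296 ± 8.03 in Vhl-deleted and 395 ± 54.8 in wild-type arrays (SD, n = 3 each), a change of -0.38 (limma adjusted p = 0.943). The groups did not overlap in either gene. Of the transcription genes, the serum response factor gene Srf was at -0.13 and its coactivator gene Mrtfb at -0.16, and 5 of 8 had a positive change. Of 20 cytoskeleton and adhesion genes, 16 had a positive change, and their median was 0.13; the LIM protein gene Pdlim7 was at 0.27 and the mesangial integrin gene Itga8 at 0.17.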

How the data were processed

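The authors deposited MAS5 signals, which are intensities on a linear scale, for each probe set in each array; the submitters' processing notes name MAS5, with no version. The deposited values show that each of the 6 arrays was scaled to a mean of 500 after trimming the lowest and highest 2%. No pair of arrays held identical values. Symbols were taken from the array's annotation and updated through Entrez numbers in RefSeq's mouse gene table. Promoter sequences came from RefSeq (GRCm38.p6).

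Values were taken as log2(signal + 28), 28 being the 25th percentile of all values. Probe sets with 1 symbol in the upper 50% by mean log2 value (a signal of about 96.4) were kept, and the brightest stood for each gene, which left 11159 genes. Of the members, 14 had several kept probe sets, and in Mylk, Pln, Ptn and Rgs5 at least 1 of these changed in the opposite direction. Groups came from the labels. The test was limma's (version 3.58.1, R 4.3.3; lmFit and eBayes with an intensity trend), adjusted over all genes by Benjamini-Hochberg, and an adjusted p under 0.05 counted as changed. The script was tested on simulated data. Alternatives changed scaling, pseudocount, filter, choice of probe set, variance model, array weights, replicate block and tubule covariate, and left out each array. Detection calls were not used here.

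Genes outside the members were named by a rule: per role of the other smooth muscle genes, any that passed, otherwise the 2 with the lowest p, and the first 2 markers of each cell type list where tested. Per-array values were given for members whose groups did not overlap, the 8 of lowest p, and Acta2, Tagln, Myh11, Des, Rgs5, Gata3 and Ptn. The members, lists and rule were chosen with earlier results of these data known. The labels call the samples biological replicates, which were taken here as 1 array per mouse.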

Additional observations from a re-analysis of the deposited data

How the results depend on the processing

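In none of the 18 alternatives did a member pass the threshold, and the median change of the members stayed positive in each (0.00 to 0.20 when leaving out 1 array). The alternatives reuse the same arrays. The median level of the members varied between arrays of a group with an SD of 0.13 on the log2 scale. The lowest limma adjusted p of a member was 0.0754 (Myl9, tubule covariate). The count of all genes changed, 9, was 33 with array weights, 36 with the tubule covariate and 1 with the replicate block, and lay between 1 and 12 when leaving out 1 array. Same-numbered arrays did not deviate together over all genes tested (correlations -0.02, -0.41 and -0.51). Deviations from a mean of 3 arrays depend on one another, so these correlations cannot show whether the numbers pair the mice. The replicate block left 2 members at an unadjusted p under 0.05 by limma, against 4. In 13 members no setting turned the direction. With the tubule covariate the change turned for Myh11 (-0.029), Mylk (0.021), Des (0.011), Vim (0.027), Hopx (0.157) and Rgs5 (-0.073). With array weights it turned for Myh11 (-0.075), Mylk (0.062), Vim (0.072), Hopx (0.202) and Rgs5 (-0.056). It turned for Rgs5 (-0.0091) and Ptn (-0.027) with quantile normalization, for Rgs5 (-0.022) and Mcam (-0.0221) with median scaling, and for Ptn (-0.0059) with the mean of kept probe sets. Leaving out 1 array at a time, changes ran from -0.071 to 0.27 for Acta2, -0.13 to 0.34 for Art3, -0.056 to 0.43 for Cspg4, -0.082 to 0.22 for Csrp1, -0.19 to 0.087 for Des, -0.22 to 0.26 for Hopx, -0.12 to 0.18 for Mcam, -0.20 to 0.23 for Myh11, -0.24 to 0.058 for Mylk, -0.33 to 0.070 for Myocd, -0.28 to 0.13 for Pln, -0.13 to 0.21 for Rgs5 and -0.10 to 0.026 for Vim. None of these values passed the threshold, and the cause was not tested. Median scaling moved the median of all genes to -0.046. Without the filter 32 members were tested, and among the brightest 30% 23. The number of arrays limits the precision throughout.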
